A study of Mus musculus with 2 samples.

Results

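The genes described here are 9 cytokine and receptor genes that govern the supply and upkeep of myeloid cells, namely the ligands Csf1, Il34, Kitl and Flt3l and the receptors Csf1r, Csf2rb, Csf3r, Kit and Flt3. They were chosen by name, and all 9 have a row in both libraries, where 20468 genes are listed for the normal and 20473 for the fibrosis liver. Liver NPCs (non-parenchymal cells, all liver cells other than hepatocytes) of 2 male C57BL/6 mice of 8 weeks were profiled by scRNA-seq with 3' chemistry, in 1 library per mouse. The fibrosis mouse had received CCl4, a hepatotoxin, in olive oil by intraperitoneal injection, 2 times a week for 6 weeks, and the normal mouse olive oil alone, as the study's methods describe the model. The labels name no allele or reporter beside the strain, and hepatocytes had been depleted from both suspensions by centrifugation. With 1 mouse per condition no test between conditions was possible, so condition, mouse and library cannot be told apart, and every interval below covers counting error only.

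Csf1 (M-CSF) and Il34 are alternative ligands of Csf1r, the receptor on which tissue macrophages and monocytes depend for survival, and Kupffer cells of the liver are a classic example. Csf2rb is the signalling chain shared by the receptors for GM-CSF, IL-3 and IL-5, and Csf3r is the G-CSF receptor of neutrophils. Kitl (stem cell factor) acts through Kit on haematopoietic progenitors, mast cells and germ cells, and Flt3l acts through Flt3 on dendritic cells (DCs) and their progenitors. Csf1r, Kit and Flt3 belong to the same family of receptor tyrosine kinases.

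The levels given are summed UMIs (unique molecular identifiers, each standing for 1 captured transcript) of a gene per 10000 UMIs of a cell class, with an exact 95% Poisson interval in parentheses. They are not divided by transcript length, so a level is compared between classes or libraries for the same gene and not between genes. The mitochondrial filter left 7471 cells of the normal mouse, with 4226 UMIs at the median, and 6132 of the fibrosis mouse, with 5775.5, and 5730 and 3954 of them fell into classes named from marker lists. A further 629 normal and 1033 fibrosis cells were set aside as mixed, since they carried the markers of another cell type beside their own. In addition, 281 and 273 cells were cycling, and 755 and 665 shallow or poorly marked cells stayed unnamed. Myeloid cells led by Cx3cr1 (76 and 207) are described by that gene. The normal ones were also led by Cd207, Mmp13 and C1qb and those of fibrosis by Ccr2, Ms4a6c and Fcgr1, with Ms4a7 and Clec4a2 in common, so their ratios compare cells of differing make-up. The monocyte-like cells were closest to the classical monocyte list in normal and to the non-classical list in fibrosis, with Ace, Chil3 and F13a1 among the leading genes of both. The summed marker lists of the endothelium, of HSC/MFs (hepatic stellate cells and myofibroblasts) and of Kupffer cells were each highest in the classes so named, the endothelial list in the classes of LSECs (liver sinusoidal endothelial cells), and 15 cell barcodes occur in both libraries. The class called mature-DC-like was found in the normal library only and was led by Ccl17, Ccl22 and Tnip3, with 2 of its 10 leading genes on the mature DC list, so its name is uncertain. The class called scar-associated-macrophage-like was found in the fibrosis library only.

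B-cell-like cells, which should lack most of the 9 genes, were taken as a measure of free RNA in the droplets. Their level was higher in the fibrosis library for 8 of the 9 genes, and the other, Il34, had 0 UMIs there in normal and 1 in fibrosis. In B-cell-like cells Csf1r was 0.362 (0.276 to 0.467) in normal and 1.02 (0.824 to 1.24) in fibrosis, Kit was 0.252 and 0.786, and Csf1 was 0.117 and 0.367. Markers of other cells shifted in both directions in the same B-cell-like cells. The endothelial list summed to 17.6 in normal and 31.9 in fibrosis, the Kupffer list to 5.50 and 22.2, and the hepatocyte list to 290.4 and 25.5. The hepatocyte list was also lower in fibrosis in LSEC zone 1-like (128.2 and 11.1) and zone 3-like cells (128.4 and 9.85). The part of this shift in the ratios below was not tested. A level is called above the B-cell-like level here when its interval lies wholly above that of the B-cell-like cells of the same library. This limit is not exact for every gene. In fibrosis Csf1r was 1.48 in plasma-cell-like cells, and Kitl was 0.534 in neutrophil-like and 0.460 in plasma-cell-like cells against 0.251 in B-cell-like cells, whereas Flt3l was lower in neutrophil-like (0.169) and plasma-cell-like cells (0.249) than in B-cell-like cells (0.492).

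Each gene had its own pattern of high classes, and most of these were the same in both libraries. Csf1 was spread over endothelial, mesenchymal and neutrophil classes, whereas Il34 was highest in HSC/MF-like cells. Csf1r marked Kupffer-cell-like and monocyte-like cells, Csf3r neutrophil-like cells, and Flt3 DC classes. Kit and Kitl were both endothelial and, among the endothelial classes, highest toward opposite ends of the liver lobule, while Kitl was also high in normal mesothelial-like cells.

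**Figure D1:**
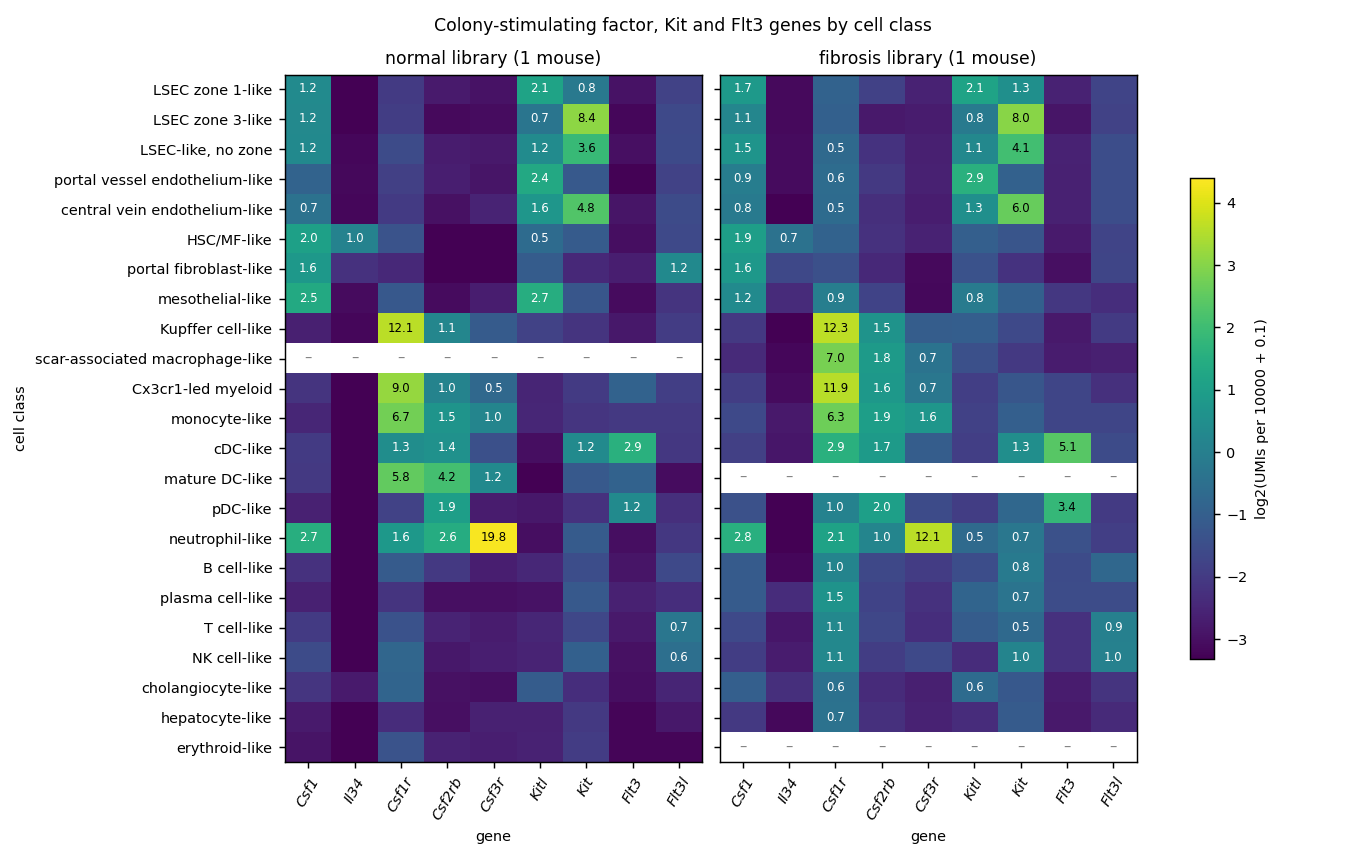
Levels of the 9 genes (columns) in each cell class of at least 20 cells (rows) in the normal (left) and fibrosis (right) library, with colour on a log2 scale of UMIs per 10000 and the level printed where it reached 0.5. A dash marks a class that the library lacked, and the brightest fields are Csf3r in neutrophil-like cells (19.8 in normal and 12.1 in fibrosis) and Csf1r in Kupffer-cell-like cells (12.1 and 12.3).

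The libraries were compared in 20 classes with at least 20 cells in each. Over all genes, 152904 pairs of a gene and a class had at least 20 UMIs over both libraries and at least 0.2 UMIs per 10000 in the higher one, and 12.5% of them were at least 2 times as high in fibrosis while 7.2% were at 0.5 times normal or less. Of the 100 such pairs of the 9 genes, 37 were higher and 5 lower by that rule, and their median ratio was 1.49, against 1.12 over all pairs. Most of the higher pairs were not above the B-cell-like level, which was taken in the library where the pair was higher. Among the 53 pairs not above it 35 were higher and 0 lower by the fold rule. Among the 47 pairs above the B-cell-like level 2 were higher and 5 lower. As the B-cell-like level was mostly higher in fibrosis, higher pairs met a stricter limit than lower ones, and the counts of this split depend on that. In those 47 pairs the interval of the ratio lay above 1 in 17, below 1 in 7 and held 1 in 23.

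**Figure D2:**
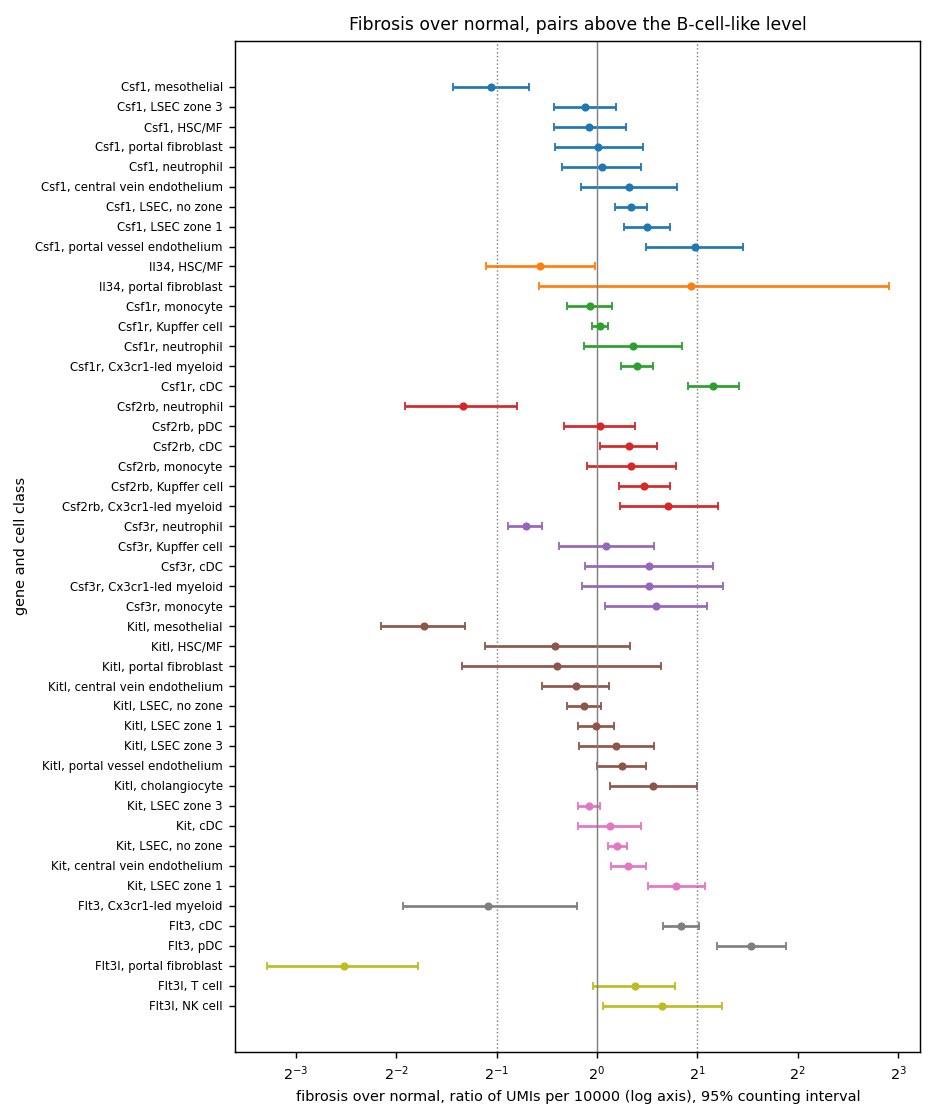
Ratio of the fibrosis level over the normal level (log axis) with its 95% counting interval for the 47 pairs of a gene and a class above the B-cell-like level of the library where they were higher, coloured by gene, with lines at 0.5, 1 and 2. The points past the outer lines are Csf1r in cDC-like and Flt3 in pDC-like cells on the high side, and Flt3l in portal-fibroblast-like, Csf1 and Kitl in mesothelial-like, Flt3 in Cx3cr1-led and Csf2rb in neutrophil-like cells on the low side.

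Csf1 (chromosome 3, minus strand of GRCm38) was captured mainly in endothelial and mesenchymal cells and in neutrophil-like cells, and hardly in macrophages. In LSEC zone 1-like cells, the periportal end of the sinusoid, its level was 1.20 (1.04 to 1.37) in normal and 1.69 (1.57 to 1.82) in fibrosis, a ratio of 1.41 (1.21 to 1.66) that became 1.12 at a mitochondrial limit of 5%, where its interval held 1. In LSEC zone 3-like cells, the pericentral end, it was 1.15 and 1.06, with a ratio of 0.922 (0.745 to 1.14), and in LSEC-like cells without a zone it was 1.17 and 1.48, with a ratio of 1.26 (1.13 to 1.41). Zone 1 over zone 3 was 1.04 (0.857 to 1.26) in the normal library, where the interval holds 1, and in fibrosis it lay above 1, at 1.59 (1.33 to 1.91). In portal-vessel-endothelium-like cells Csf1 was lower, at 0.444 in normal and 0.876 in fibrosis, with a ratio of 1.97 (1.40 to 2.75), beside 3.14 (1.75 to 5.82) in B-cell-like cells, and the part of that shift was not tested. The portal and zone 1 classes differed in make-up between the libraries. Normal portal-vessel-endothelium-like cells joined a sub-cluster led by Nrg1 and Gja5, with Csf1 at 0.406, and one led by Ednrb, Adgrg6 and Mecom, with 0.5. In fibrosis the Nrg1-led sub-cluster alone bore that name, with Csf1 at 0.876, and the sub-cluster led by Adgrg6 and Mecom was named LSEC zone 1, with 1.44.

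Mesenchymal classes also carried Csf1. HSC/MF-like cells held 2.0 (1.60 to 2.46) in normal and 1.90 (1.68 to 2.13) in fibrosis, and portal-fibroblast-like cells 1.63 and 1.64, both with ratios whose intervals held 1, at 0.949 (0.745 to 1.22) and 1.01 (0.751 to 1.38). HSC/MF-like over LSEC zone 1-like cells was 1.67 (1.29 to 2.16) in normal and 1.12 (0.976 to 1.29) in fibrosis. Mesothelial-like cells, which cover the liver surface, held 2.49 (2.10 to 2.94) in normal and 1.20 (0.982 to 1.45) in fibrosis, a ratio of 0.481 (0.370 to 0.625) or, per cell, 0.692. In that class the summed mesothelial markers were 158 in normal and 100.5 in fibrosis and the Kupffer list 1.51 and 13.2, and the part of these shifts in the Csf1 and Kitl ratios of the class was not tested.

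Among blood cells Csf1 stood out in neutrophil-like cells, at 2.74 (2.27 to 3.28) in normal and 2.84 (2.31 to 3.45) in fibrosis, and in basophil-and-mast-cell-like cells. The latter were only 10 normal and 12 fibrosis cells, with 66 and 31 Csf1 UMIs and levels of 16.3 and 6.03, the highest of any class, and no ratio is given for so few cells. In Kupffer-cell-like cells Csf1 was 0.0603 and 0.141, at or below the B-cell-like level. By share of all Csf1 UMIs, LSEC-like cells without a zone held 26.5% in normal and 12.8% in fibrosis, LSEC zone 1-like cells 8.21% and 14.8%, and HSC/MF-like cells 3.56% and 5.78%. Mixed cells held 13.6% and 28.1%, so these shares describe captured and named cells and not the whole organ.

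Il34 (chromosome 8, minus strand), the other ligand of Csf1r and best known from skin and brain, was rare, with 124 UMIs over all normal and 543 over all fibrosis cells. HSC/MF-like cells held its highest level, at 0.976 (0.707 to 1.32) from 43 UMIs in normal and 0.657 (0.533 to 0.801) from 98 UMIs in fibrosis. The ratio was 0.673 (0.466 to 0.987), but per cell rather than per UMI it was 1.16, as the fibrosis HSC/MF-like cells held more UMIs each, so the direction depended on the scale. The HSC/MF list summed to 400.1 in normal and 220.3 in fibrosis HSC/MF-like cells, and the part of this shift in the ratios of Il34 and Csf1 there was not tested. Of all Il34 UMIs they held 34.7% in normal and 18.0% in fibrosis, and mixed cells 29.0% and 42.0%. HSC/MF-like over portal-fibroblast-like cells was 8.54 (3.11 to 32.8) in normal and 3.00 (1.95 to 4.74) in fibrosis. Within the fibrosis HSC/MF-like cells the 52 cells of a sub-cluster led by Tmem56, Angptl6 and Colec10 held 1.31, and the 70 cells of a sub-cluster led by Col3a1, Robo2 and Lrat held 0.455, and Csf1 had the opposite order there, at 1.54 and 2.01. In LSEC zone 3-like cells of the normal library no Il34 UMI was counted, which allows up to 0.0149 per 10000. Both ligands were seen together in 15 of 62 normal and 46 of 122 fibrosis HSC/MF-like cells, where 41 and 91 had a Csf1 UMI and 19 and 53 an Il34 UMI. Il34 is overlapped on the other strand by Gm15894 and Gm15895, and whether the counting used strand was not given in the sources used here.

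Csf1r (chromosome 18, plus strand), the receptor of both ligands, was highest in Kupffer-cell-like cells, the resident macrophages of the sinusoid. Its level there was 12.1 (11.6 to 12.6) in normal and 12.3 (11.8 to 12.8) in fibrosis, a ratio of 1.02 (0.963 to 1.08). Kupffer-cell-like cells lay above B-cell-like cells by 33.4 (25.8 to 44.0) times in normal and 12.1 (9.88 to 15.0) times in fibrosis. The normal Kupffer-cell-like sub-clusters held Csf1r at 13, 10.8 and 6.47, the last in 119 shallow cells with a median of 1461 UMIs. Per cell the ratio was 2.22, as a fibrosis Kupffer-cell-like cell had a median of 10195 UMIs and a normal one of 4056.

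Cx3cr1-led myeloid cells came next, at 9.02 (8.12 to 9.98) in normal and 11.9 (11.4 to 12.4) in fibrosis, a ratio of 1.32 (1.18 to 1.47) between clusters led by partly different genes. In these cells the Kupffer list summed to 18.0 in normal and 47.3 in fibrosis, and its part in the Csf1r, Csf2rb and Flt3 ratios of the class was not tested. In the fibrosis library they did not differ from Kupffer-cell-like cells beyond counting error, with Kupffer-cell-like over Cx3cr1-led at 1.04 (0.978 to 1.10), whereas in the normal library it was 1.34 (1.20 to 1.5). Monocyte-like cells held 6.67 (6.05 to 7.34) and 6.34 (5.62 to 7.13), with a ratio of 0.951 (0.815 to 1.11) between a classical-monocyte-like cluster in normal and a non-classical-monocyte-like one in fibrosis. Scar-associated-macrophage-like cells, marked by Trem2 and Gpnmb and named only in fibrosis, held 6.98 (6.74 to 7.22), and Kupffer-cell-like cells were above them by 1.76 (1.68 to 1.86). The mature-DC-like cells of the normal library held 5.78 (5.13 to 6.48). Monocyte-like and scar-associated-macrophage-like cells of the fibrosis library had overlapping intervals. Neutrophil-like cells, which also held Csf1, had Csf1r at 1.62 (1.27 to 2.05) in normal and 2.08 (1.63 to 2.61) in fibrosis, above the B-cell-like level in both.

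Csf1r in cDC-like cells (conventional DCs) was 1.28 (1.12 to 1.46) in normal and 2.86 (2.55 to 3.20) in fibrosis, a ratio of 2.23 (1.88 to 2.67) (1.66 per cell), 1 of the 2 higher pairs named above. The class did not have the same make-up in both libraries. In the normal library it joined a sub-cluster led by the cDC1 genes Xcr1 and Itgae, with Csf1r at 0.450, and a sub-cluster led by Mpo, Prtn3 and Elane, granule genes of neutrophil precursors, that also carried the cDC2 gene Cd209a, with Csf1r at 2.32. In the fibrosis library 1 sub-cluster led by Cd209a, Ifnb1, H2-Eb1 and Xcr1 held all of them. In the same cells the Kupffer list summed to 4.33 in normal and 14.8 in fibrosis, and its part in the ratio was not tested.

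The cells in which Csf1r was captured shifted with the macrophage classes present. Kupffer-cell-like cells held 43.6% of all Csf1r UMIs in normal and 18.5% in fibrosis, where scar-associated-macrophage-like cells held 22.8% and Cx3cr1-led cells 15.4%, the latter after 6.72% in normal. After thinning each cell to 1000 UMIs, 61.5% of normal and 67.8% of fibrosis Kupffer-cell-like cells had a Csf1r UMI (85.9% and 99.0% unthinned). The same thinning left 2.79% and 8.53% of B-cell-like cells with a UMI, at median depths of 2757 and 2247 UMIs. Among the classes whose thinned shares are given, thinning left out 1 normal and 3 fibrosis B-cell-like cells, 1 fibrosis LSEC zone 3-like cell and the neutrophil-like cells named below. In pDC-like, T-cell-like, NK-cell-like and plasma-cell-like cells Csf1r was between 0.124 and 0.488 in normal and between 0.966 and 1.48 in fibrosis, and their intervals overlapped that of B-cell-like cells or lay below it. Csf1r shares ground with Hmgxb3 on the other strand.

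**Figure D3:**
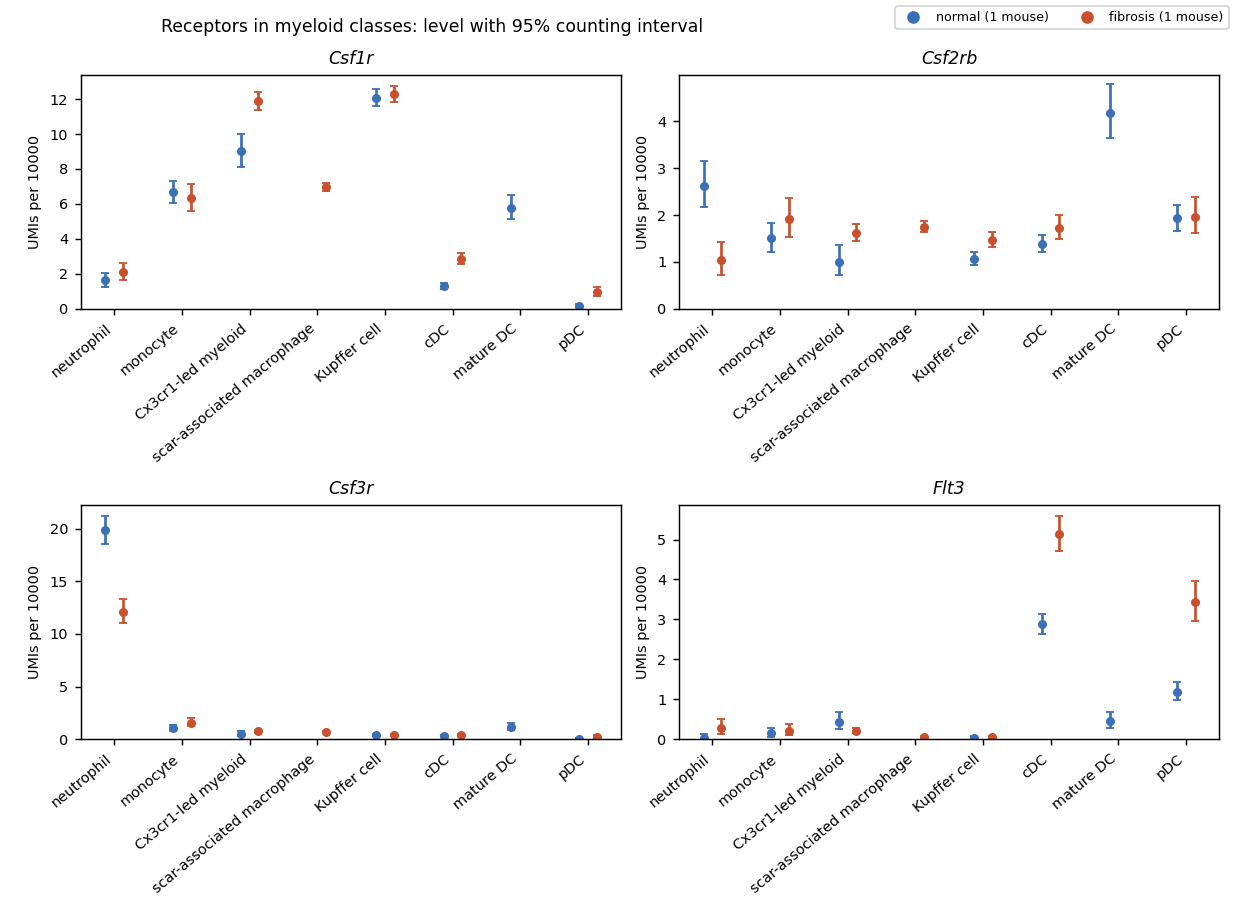
Levels of Csf1r, Csf2rb, Csf3r and Flt3 (UMIs per 10000) in myeloid classes of the normal (blue) and fibrosis (red) library, with bars for the 95% counting interval and an empty place where a library lacked the class. Csf1r peaks in Kupffer-cell-like cells in both libraries, Csf3r in neutrophil-like cells with the normal value above the fibrosis value, and Flt3 in cDC-like cells with the fibrosis value above.

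Csf2rb (chromosome 15, plus strand) was shared by most myeloid classes. Outside the few basophil-and-mast-cell-like cells (10.8 and 7.77, from 44 and 40 UMIs), the mature-DC-like cells of the normal library were highest, at 4.19 (3.64 to 4.80). Neutrophil-like cells held 2.63 (2.17 to 3.16) in normal and 1.04 (0.732 to 1.43) in fibrosis, a ratio of 0.396 (0.265 to 0.577). Neutrophil-like over Kupffer-cell-like cells was 2.47 (1.95 to 3.11) in normal and 0.704 (0.487 to 0.992) in fibrosis, so the order of these classes turned. Kupffer-cell-like cells held 1.07 and 1.48, with a ratio of 1.39 (1.16 to 1.66) or, per cell, 3.03. Cx3cr1-led cells held 0.996 and 1.62, with a ratio of 1.63 (1.17 to 2.31) or, per cell, 2.76. In monocyte-like cells the ratio was 1.27 (0.935 to 1.72) and in pDC-like cells 1.02 (0.798 to 1.30), the level of the latter being 1.93 and 1.97. Scar-associated-macrophage-like cells held 1.75 (1.63 to 1.87) and 26.6% of all Csf2rb UMIs of the fibrosis library, the largest share of any named class there. Csf2rb lies beside Csf2rb2, a near-identical copy that in the mouse serves the IL-3 receptor, and only uniquely mapped reads were counted, so reads common to the pair were lost and the levels of both are uncertain.

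Csf3r (chromosome 4, plus strand) was concentrated in neutrophil-like cells. Its level there was 19.8 (18.5 to 21.2) from 868 UMIs in 166 normal cells and 12.1 (11.0 to 13.3) from 431 UMIs in 191 fibrosis cells, a ratio of 0.611 (0.543 to 0.686). The fibrosis neutrophil-like cells formed a sub-cluster led by S100a9 and Ngp, with Csf3r at 13.6, and a sub-cluster led by Slc7a11, Slfn4 and Il1r2, with 7.83, and both were below the normal value. The endothelial list summed to 17.0 in normal and 42.2 in fibrosis neutrophil-like cells and the Kupffer list to 11.2 and 33.1, while the neutrophil list itself summed to 570.4 and 321. The part of these shifts in the ratios of Csf3r and Csf2rb was not tested. Csf1 in the same cells had a ratio of 1.03 (0.786 to 1.36). Thinned to 1000 UMIs, 80.7% of normal and 71.2% of fibrosis neutrophil-like cells had a Csf3r UMI, against 0.697% and 1.81% of B-cell-like cells, with 31 of the 191 fibrosis neutrophil-like cells left out as too shallow.

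Lower levels of Csf3r were found in monocyte-like cells, at 1.05 (0.809 to 1.33) and 1.57 (1.22 to 1.99), with a ratio of 1.5 (1.05 to 2.14). This ratio, between the differing monocyte clusters named above, was 1.04 per cell and 0.978 without a mitochondrial limit. Csf3r was also found in the normal mature-DC-like cells, at 1.17, and in scar-associated-macrophage-like cells, at 0.663. In monocyte-like cells the Kupffer list summed to 4.55 in normal and 18.9 in fibrosis and the endothelial list to 10.6 and 26.8, and their part in the ratio was not tested. Although low per UMI, the scar-associated-macrophage-like class held 20.4% of the Csf3r UMIs of the fibrosis library, beside 27.7% in neutrophil-like cells, which had held 59.3% in normal.

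Kitl (chromosome 10, plus strand) and Kit (chromosome 5, plus strand) were the endothelial pair. The 250 bases upstream of their RefSeq starts, with those of Csf3r and Flt3, are shown to set the start regions of genes with such different high classes side by side. They are from RefSeq's promoter table of GRCm38.p6, run 5′ to 3′ on the gene's own strand, and lie at chr10:100015571-100015820 (plus), chr5:75574737-75574986 (plus), chr4:126024409-126024658 (plus) and chr5:147400490-147400739 (minus). The RefSeq starts of Kitl, Kit and Csf3r lie inside the GENCODE gene, so part of each of these windows, and most of that of Kitl, does too. Capitals mark matches, on either strand, to short motifs of factors known from blood or endothelial cells. The letters searched were GAGGAA for PU.1. For the GATA factors they were AGATAA. For the C/EBP family the search used TTGCNNAA. For TCF/LEF factors it used CTTTGA, and no match overlapped another here.
Kitl: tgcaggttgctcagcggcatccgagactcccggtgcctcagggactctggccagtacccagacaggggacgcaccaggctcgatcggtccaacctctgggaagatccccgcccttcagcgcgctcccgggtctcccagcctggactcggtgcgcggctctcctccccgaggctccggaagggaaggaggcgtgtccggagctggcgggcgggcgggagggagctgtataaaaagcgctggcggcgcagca
Kit: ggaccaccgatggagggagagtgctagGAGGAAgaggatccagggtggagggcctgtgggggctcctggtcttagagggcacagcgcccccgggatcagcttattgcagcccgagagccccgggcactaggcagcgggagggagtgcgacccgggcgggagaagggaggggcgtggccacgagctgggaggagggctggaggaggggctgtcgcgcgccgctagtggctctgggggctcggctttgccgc
Csf3r: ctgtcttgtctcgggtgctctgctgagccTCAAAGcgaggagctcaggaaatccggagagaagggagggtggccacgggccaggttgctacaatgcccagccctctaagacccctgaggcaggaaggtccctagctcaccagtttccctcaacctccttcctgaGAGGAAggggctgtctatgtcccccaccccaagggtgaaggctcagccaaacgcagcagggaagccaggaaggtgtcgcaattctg
Flt3: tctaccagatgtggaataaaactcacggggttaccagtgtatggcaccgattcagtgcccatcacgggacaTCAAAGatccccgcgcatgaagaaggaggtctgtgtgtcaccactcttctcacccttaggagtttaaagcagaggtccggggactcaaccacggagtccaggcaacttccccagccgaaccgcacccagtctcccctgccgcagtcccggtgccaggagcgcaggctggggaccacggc

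Kitl held 0 of these matches, Kit 1 to PU.1, Csf3r 1 to PU.1 and 1 to TCF/LEF, and Flt3 1 to TCF/LEF. Of 27025 promoters of the same length, 23.1% held GAGGAA, 10.3% AGATAA, 9.55% TTGCNNAA and 14.0% CTTTGA, so such matches are common, and they are given as letters and not as binding sites. Sequence was matched for 6 of the 9 genes.

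Among the endothelial classes Kitl, the ligand, was highest toward the portal side of the lobule. Portal-vessel-endothelium-like cells held 2.44 (2.25 to 2.64) in normal and 2.90 (2.49 to 3.35) in fibrosis, a ratio of 1.19 (1.0 to 1.41) that turned to 0.875 at a mitochondrial limit of 5%. LSEC zone 1-like cells held 2.13 (1.92 to 2.36) and 2.12 (1.98 to 2.26), with a ratio of 0.993 (0.878 to 1.12), LSEC-like cells without a zone 1.22 and 1.12, and LSEC zone 3-like cells 0.694 and 0.794. Zone 1 over zone 3 was 3.07 (2.52 to 3.76) in normal and 2.67 (2.19 to 3.28) in fibrosis. It was 1.65 in fibrosis at a clustering resolution of 0.4, and at 1.5 the order of the libraries turned, with 1.80 in normal and 3.79 in fibrosis. Central-vein-endothelium-like cells, with 1.56 and 1.35, lay between. The order of the 5 endothelial classes was the same in both libraries, although the intervals of portal vessel and zone 1 overlapped in normal and those of central vein and no zone in fibrosis.

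Outside the endothelium Kitl was high in normal mesothelial-like cells, at 2.73 (2.31 to 3.20), and lower in those of fibrosis, at 0.823 (0.644 to 1.04), a ratio of 0.302 (0.225 to 0.402). These rest on 44 and 48 cells, with 152 and 72 UMIs, in the class whose marker shifts were given with Csf1. In cholangiocyte-like cells, the lining of bile ducts, Kitl was 0.375 and 0.553, with a ratio of 1.47 (1.09 to 1.99) or, per cell, 2.44. In B-cell-like cells Kitl was 0.0798 and 0.251, and in cholangiocyte-like cells the endothelial list summed to 6.18 in normal and 13.8 in fibrosis. The part of these shifts in the ratio was not tested. HSC/MF-like cells, with 0.545 and 0.409, were far below the portal endothelium. Of all Kitl UMIs, portal-vessel-endothelium-like cells held 19.9% in normal and 4.58% in fibrosis, and LSEC zone 1-like cells 11.9% and 22.9%, where the first class had 363 and 103 cells and the second 258 and 468. The classes had the differing make-up given for Csf1, whose part in these shares was not tested. The 166 normal cells led by Ednrb, Adgrg6 and Mecom (Kitl at 1.81) were counted with the portal vessel and the 174 fibrosis cells led by Adgrg6 and Mecom (2.68) with zone 1, while the Nrg1-led sub-clusters held Kitl at 2.86 in 197 normal and 2.90 in 103 fibrosis cells.

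Kit, the receptor, ran the other way. LSEC zone 3-like cells held 8.45 (8.05 to 8.86) in normal and 8.02 (7.55 to 8.50) in fibrosis, a ratio of 0.949 (0.879 to 1.02). Central-vein-endothelium-like cells held 4.84 (4.44 to 5.26) and 6.02 (5.53 to 6.53), with a ratio of 1.24 (1.10 to 1.40) that turned to 0.682 at a mitochondrial limit of 5%, and portal-vessel-endothelium-like cells only 0.343 and 0.430, at or below the B-cell-like level in fibrosis. Zone 3 over zone 1 was 11.0 (9.22 to 13.3) in normal and 6.06 (5.47 to 6.71) in fibrosis, and the intervals of these values do not overlap, but at a clustering resolution of 1.5 the order turned, with 7.16 in normal and 9.67 in fibrosis. Central over portal endothelium was 14.1 (11.2 to 17.9) and 14.0 (9.52 to 21.4). Thinned to 1000 UMIs, 52.6% of normal and 45.4% of fibrosis LSEC zone 3-like cells had a Kit UMI, against 5.04% and 9.19% in zone 1 and 2.96% and 6.98% in B-cell-like cells.

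In LSEC zone 1-like cells Kit was 0.766 (0.640 to 0.910) in normal and 1.32 (1.22 to 1.44) in fibrosis, a ratio of 1.73 (1.43 to 2.11). In B-cell-like cells Kit was 0.252 and 0.786, a difference of like size whose part in the ratio was not tested, and at a clustering resolution of 1.5 the ratio in zone 1 was 0.791. For LSEC-like cells of all zones pooled, a summary chosen after seeing the data, Kit was 4.11 in normal and 3.44 in fibrosis, a ratio of 0.837 (0.799 to 0.877). The pooled ratio was below 1 although that of zone 3 held 1 and those of zone 1 and of cells without a zone, at 1.15 (1.08 to 1.23), lay above it, and zone 1 made up 258 of 1686 LSEC-like cells in normal and 468 of 1195 in fibrosis. The ratio of cells without a zone turned below 1 in 6 of the 7 other settings of filter and clustering, down to 0.606, whereas the pooled ratio stayed below 1 in all of them. Pooled Csf1 had a ratio of 1.29 (1.19 to 1.40) and pooled Kitl of 1.18 (1.09 to 1.28), but at a mitochondrial limit of 5% these were 1.18 (0.965 to 1.44) and 0.986 (0.813 to 1.19), so both intervals held 1 there and Kitl changed direction.

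**Figure D4:**
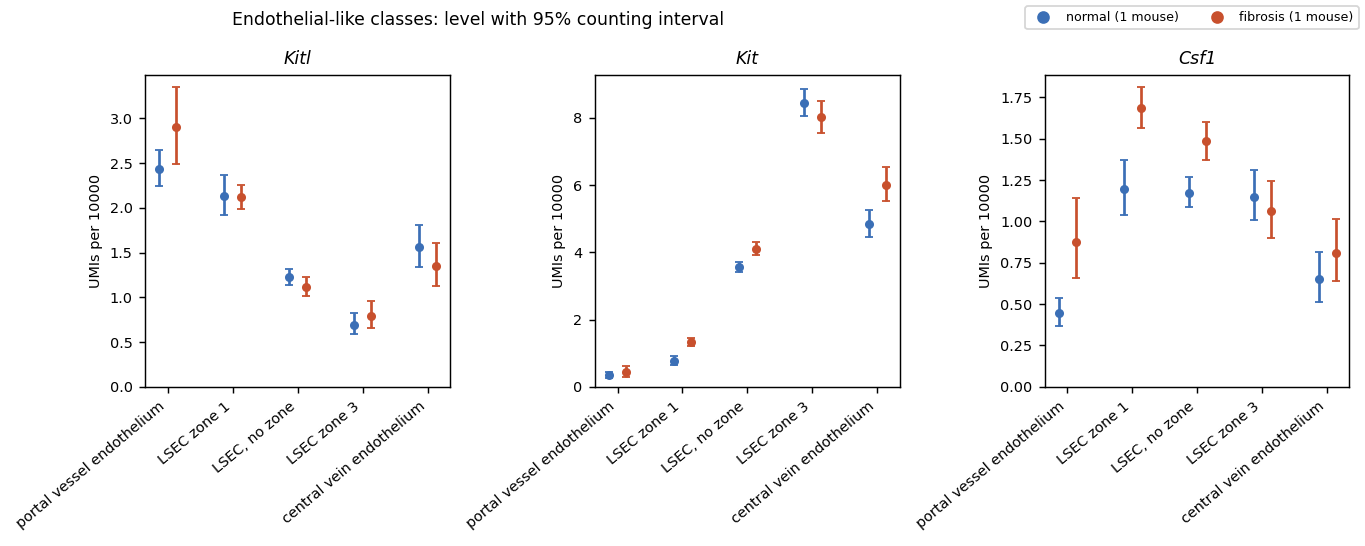
Levels of Kitl, Kit and Csf1 (UMIs per 10000, axes from 0) in 5 endothelial-like classes ordered from the portal to the central side, in the normal (blue) and fibrosis (red) library, with bars for the 95% counting interval. Kitl declines from portal vessel to LSEC zone 3 while Kit climbs from 0.343 to 8.45 in normal and from 0.430 to 8.02 in fibrosis, and Csf1 shows no such slope in the normal LSEC-like classes.

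The sub-clusters that make up the named endothelial classes were formed without either gene. Their values are parts of the class values and not a second result. Ligand and receptor ran opposite at the ends of the range. Central-vein-endothelium-like cells departed from this, with both genes above LSEC-like cells without a zone. Kit was 4.84 against 3.56 in normal and 6.02 against 4.10 in fibrosis. Kitl was 1.56 against 1.22 and 1.35 against 1.12, with overlapping intervals in fibrosis. The normal sub-cluster with the highest Kit, 9.92, had the lowest Kitl, 0.505, and the one with the highest Kitl, 2.86, had the lowest Kit, 0.203. In fibrosis zone 3 and portal vessel endothelium were 1 sub-cluster each and held the same places, with the values given above. Of the fibrosis zone 1 sub-clusters, that led by Adgrg6 and Mecom held 0.690 Kit and 2.68 Kitl, and that led by Chst2 and Il1a 1.65 and 1.83. Of the LSEC zone 3-like cells with a Kitl UMI, 93 of 100 normal and 70 of 70 fibrosis cells also had a Kit UMI, beside 292 of all 310 and 152 of all 164.

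**Figure D5:**
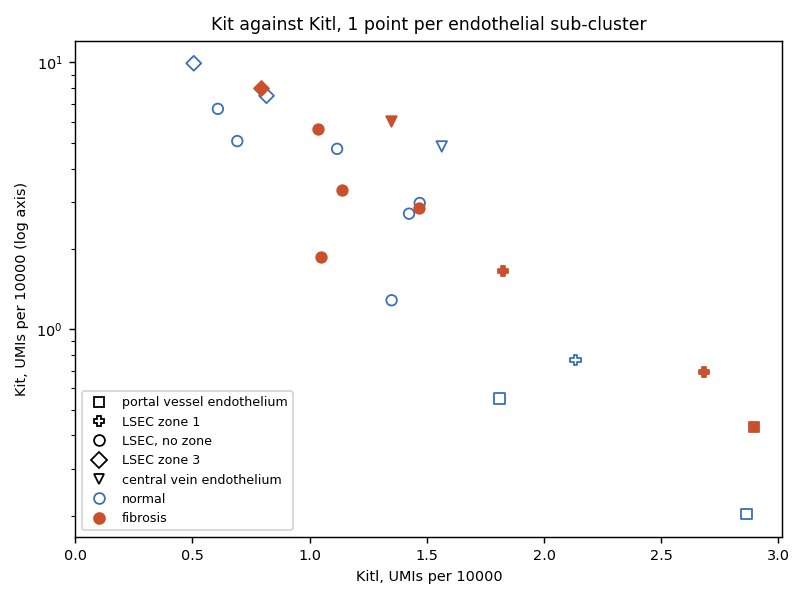
Kit (log axis) against Kitl (linear axis), both in UMIs per 10000, with 1 point per sub-cluster of the endothelial-like classes, open blue for normal and filled red for fibrosis, and the marker shape giving the class. The points run from zone 3 at the upper left (9.92 Kit and 0.505 Kitl in normal) to portal vessel endothelium at the lower right (0.203 and 2.86).

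Among blood cells Kit was seen in cDC-like cells, at 1.20 (1.05 to 1.38) in normal and 1.31 (1.10 to 1.55) in fibrosis, a ratio of 1.09 (0.875 to 1.36). These were above B-cell-like cells by 4.78 (3.41 to 6.85) times in normal and 1.67 (1.25 to 2.24) times in fibrosis. In the normal library the Xcr1-led sub-cluster held 1.48 and the Mpo-led sub-cluster 0.852. Basophil-and-mast-cell-like cells, in which mast cells would be Kit-rich, had 2 Kit UMIs in 10 normal cells and 17 in 12 fibrosis cells.

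Flt3l (chromosome 7, minus strand), the ligand that sustains DCs, was low in all classes, with 908 UMIs over all normal and 1077 over all fibrosis cells. Lymphocytes carried it in both libraries. T-cell-like cells held 0.712 (0.612 to 0.824) in normal and 0.923 (0.723 to 1.16) in fibrosis, and NK-cell-like cells 0.613 (0.445 to 0.823) and 0.961 (0.732 to 1.24), with ratios of 1.30 (0.974 to 1.71) and 1.57 (1.04 to 2.37), beside 2.17 (1.38 to 3.43) in B-cell-like cells. The NK list in NK-cell-like cells summed to 93.4 in normal and 47.7 in fibrosis. In fibrosis 66 of the 162 NK-cell-like cells formed a sub-cluster led within its lineage by the cycling genes Mki67 and Pclaf. The part of these shifts in the NK ratio was not tested. T-cell-like over B-cell-like cells was 3.13 (2.19 to 4.59) in normal and 1.87 (1.28 to 2.76) in fibrosis. The highest value of a lymphoid sub-cluster in fibrosis, 1.39, was that of an unnamed sub-cluster of 84 cells led by Ctla4 and Ikzf2.

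Normal portal-fibroblast-like cells also carried Flt3l, at 1.17 (0.841 to 1.59) from 41 UMIs in 43 cells, and those of fibrosis did not stand above B-cell-like cells, at 0.204 (0.133 to 0.298) from 26 UMIs in 75 cells. The ratio of 0.174 (0.102 to 0.291) was the lowest of all 47 pairs, and per cell it was 0.364. The class differed in more than this gene, as its summed markers were 103 in normal and 38.7 in fibrosis, and Gsn and Sfrp1 were among the leading genes of the first and Ltbp2 and Mfap4 among those of the second. Whether the same kind of fibroblast was compared therefore cannot be told apart from the condition. LSEC-like classes had Flt3l between 0.189 and 0.233 in normal and between 0.188 and 0.255 in fibrosis, close to or below the B-cell-like level of 0.227 and 0.492. Flt3l is overlapped on its own strand by Gm45713, which could share its reads.

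Flt3 (chromosome 5, minus strand) reached 1 UMI per 10000 in cDC-like and pDC-like cells only, among the named classes. cDC-like cells held 2.88 (2.63 to 3.14) in normal and 5.14 (4.72 to 5.59) in fibrosis, a ratio of 1.79 (1.58 to 2.02). The normal Xcr1-led sub-cluster held Flt3 at 3.76 and the Mpo-led sub-cluster at 1.78. As the latter, 98 of the 195 normal cells, was led by neutrophil precursor genes and no such sub-cluster entered the class in fibrosis, the ratios of cDC-like cells compare classes of differing make-up. pDC-like cells (plasmacytoid DCs) held 1.18 (0.975 to 1.42) and 3.43 (2.95 to 3.95), a ratio of 2.90 (2.29 to 3.69) and the largest of the 47 pairs. In the same pDC-like cells the Kupffer list summed to 2.10 in normal and 14.2 in fibrosis and the endothelial list to 12.7 and 21.6, and their part in the ratio was not tested. cDC-like over pDC-like cells was 2.43 (1.98 to 3.01) in normal and 1.5 (1.27 to 1.78) in fibrosis. In B-cell-like cells Flt3 was 0.0368 and 0.241, well below either class. In Cx3cr1-led cells Flt3 was 0.437 from 18 UMIs and 0.205 from 39 UMIs, a ratio of 0.470 (0.262 to 0.872) between these differing clusters and of 0.795 per cell, and the fibrosis value was not above the B-cell-like level.

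After thinning, 25.1% of normal and 39.4% of fibrosis cDC-like cells and 12.6% and 31.1% of pDC-like cells had a Flt3 UMI. cDC-like and pDC-like cells held 45.9% and 10.3% of the Flt3 UMIs in normal and 36.9% and 12.6% in fibrosis, and cycling cells 18.6% and 13%. A normal cycling sub-cluster of 45 cells that carried Xcr1 held Flt3 at 2.73. Gm26597 overlaps Flt3 on the other strand.

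The wider axis was followed with 30 further genes, of which 22 reached 1 UMI per 10000 in some class. The soluble ligands were nearly undetected in NPCs at this depth. Csf2 (GM-CSF) had 49 UMIs in normal and 6 in fibrosis, Csf3 (G-CSF) 9 and 32, Il5 1 and 0, and Il3 0 in both. Il5ra, with 24 and 16 UMIs, and Ptprz1, a receptor for IL-34 in brain, with 13 and 14, stayed below the limit as well. Stat5a (757 and 748 UMIs) and Il3ra (1758 and 3170) were not rare but also stayed below it. Il3ra was highest in LSEC zone 3-like cells in normal, at 0.878, and in LSEC-like cells without a zone in fibrosis, at 0.953. Over the 24 axis genes with a pair tested, 94 of 425 pairs with a class (22.1%) were higher and 26 (6.12%) lower by the fold rule, with a median ratio of 1.28, beside 12.5% and 7.2% over all genes.

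Csf2ra, the ligand-binding chain for GM-CSF, was highest in monocyte-like cells, at 3.09 in normal and 2.27 in fibrosis. The ratio of 0.736 (0.572 to 0.941) compares a classical-monocyte-like cluster in normal with a non-classical-monocyte-like one in fibrosis. The Kupffer list there summed to 4.55 in normal and 18.9 in fibrosis, and its part in the ratio was not tested. Csf2rb2 was highest in pDC-like cells, at 2.15 in normal and 1.40 in fibrosis. Sdc1, a proteoglycan that can bind IL-34, was highest in portal-vessel-endothelium-like cells, at 6.14 in normal and 6.31 in fibrosis, far from the Il34 of HSC/MF-like cells. Tyrobp, the adaptor that relays Csf1r and Trem2 signals, was 33.4 in normal and 17.2 in fibrosis in pDC-like cells, its highest class in normal, and highest at 23.1 in scar-associated-macrophage-like cells in fibrosis.

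Of the signalling genes, the kinase Lyn was highest in monocyte-like cells, at 5.83 in normal and 4.93 in fibrosis. The phosphatase genes Ptpn6 and Inpp5d were highest in pDC-like cells (5.31 in normal and 6.74 in fibrosis) and cDC-like cells (2.89 in normal and 3.90 in fibrosis). The adaptor Grb2 was 3.59 in normal and 5.31 in fibrosis in Kupffer-cell-like cells, a ratio of 1.48 (1.35 to 1.63), with 4.07 in normal mature-DC-like cells as its highest value there. Gab2 was 0.389 in normal and 1.05 in fibrosis in the Cx3cr1-led cells, whose clusters differed in their other leading genes, from 16 and 200 UMIs, and its highest normal value was 0.640 in neutrophil-like cells. Jak2, a kinase that Csf2rb and Csf3r use, was 2.06 in normal and 2.47 in fibrosis in cDC-like cells and highest in normal mature-DC-like cells, at 2.25, and Stat5b was highest in monocyte-like cells, at 1.03 in normal and 1.05 in fibrosis. Stat3 was 3.68 in normal and 3.43 in fibrosis in neutrophil-like cells, its highest class in normal, and 2.30 in normal and 3.46 in fibrosis in mesothelial-like cells, its highest in fibrosis. Cbl, a ubiquitin ligase that ends receptor signals, was 2.82 in normal and 3.00 in fibrosis in cDC-like cells, its highest class in fibrosis, and 2.94 in normal and 2.18 in fibrosis in NK-cell-like cells, its highest in normal. The feedback inhibitor Socs3 was 5.53 in normal and 3.93 in fibrosis in portal-vessel-endothelium-like cells, a ratio of 0.712 (0.619 to 0.816), Sh2b3 was 1.32 in normal and 1.40 in fibrosis in LSEC zone 1-like and 1.43 in normal and 1.24 in fibrosis in portal-vessel-endothelium-like cells, and Cish was highest in T-cell-like cells, at 1.38 in normal and 1.18 in fibrosis.

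Most lineage transcription factors were highest in the same class in both libraries. Irf8, needed for DCs, was highest in pDC-like cells, at 45.4 in normal and 46.6 in fibrosis, and Cebpb in neutrophil-like cells, at 23.6 in normal and 24.4 in fibrosis. Cebpa was 2.38 in normal and 3.45 in fibrosis in Cx3cr1-led cells, and Spi1, which encodes PU.1, was 4.44 in normal and 4.12 in fibrosis in Kupffer-cell-like cells and 6.88 in the normal mature-DC-like cells, its highest class there. For 13 of the 30 genes the highest class was the same in both libraries.

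The genes with the most similar pattern were sought among 6146 genes by Pearson's r of log2(UMIs per 10000 + 0.1) over 43 points, each a class of 1 library, as a description without a test, since the points share libraries and free RNA. Kit was most like Wnt2 (r = 0.91), Cyp26b1 (0.87) and Adgrg3 (0.85), and Wnt2 was among the markers that named zone 3. Kitl was most like Cracr2b (0.92), Arhgap29 (0.92) and Tm4sf1 (0.91). Csf1 was most like Igf1r (0.86), Pdlim7 (0.84) and Nkd1 (0.83), and Il34 like Arvcf (0.95), Colec11 (0.93), which was a marker used to name HSC/MF-like cells, and Fam171b (0.93).

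For the myeloid receptors the nearest genes were Fcgr1 (0.97), Clec4a3 (0.95) and Slc11a1 (0.95) for Csf1r. They were Pirb (0.96), Alox5ap (0.96) and Nfam1 (0.94) for Csf2rb, and Il1b (0.94), Ccr1 (0.94) and Nlrp3 (0.94) for Csf3r. Flt3 was nearest to Cd209a (0.93), a cDC2 marker used in naming, Mycl (0.89) and Tnni2 (0.89). Flt3l was nearest to Bcl2 (0.81), Fam189b (0.79) and Aak1 (0.76). Among the 9 genes themselves the closest patterns were those of Csf1r and Csf2rb (r = 0.80), Csf2rb and Csf3r (0.75) and Csf1r and Csf3r (0.65). Csf1 and Csf1r had an r of -0.35, with ligand and receptor high in mostly different classes, although neutrophil-like cells held both. Kit and Kitl, both endothelial, had an r of 0.45.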

How the data were processed

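The authors aligned the reads to mm10 with Cell Ranger 3.0.1, per the labels, and deposited for each library a table of UMI counts per gene and cell, without normalization. The files hold whole numbers summing to 44062632 UMIs in 8130 normal cells and 53288463 in 6437 fibrosis cells. Doublets were excluded with Scrublet according to the methods, and Scrublet called 1 further cell in each library here. Cells were kept below a mitochondrial share of 10% and above 200 detected genes.

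In scanpy 1.11.5 (Python 3.11.15), cells scaled to 10000 UMIs and log-transformed were clustered per library on 2000 variable genes and 10 principal components (Leiden, 20 neighbours, resolution 0.8) and again within each lineage, with the 9 genes and the 30 axis genes held out. A sub-cluster took the marker list with most genes among its 10 leading genes if at least 3 were raised at least 2 times. It stayed mixed if it carried another lineage's markers, but hepatocyte markers did not count and haemoglobin genes counted in endothelial sub-clusters only. Some normal B-cell-like (157 of 575 cells), T-cell-like and Kupffer-cell-like sub-clusters led within their lineage by haemoglobin genes thus kept their names. A sub-cluster was cycling if it showed cell cycle genes. It stayed unnamed if poorly marked, or if shallow without a marker of its list among its leading genes. Endothelial zones were named within the endothelium. Class counts were summed, with exact Poisson, conditional and Clopper-Pearson intervals at 95%, and a count of 0 was limited by 3 counts. On simulated libraries of LSEC zone 1-like cells (8656 genes) 199 of 200 genes changed 4 times passed the fold rule, as did 11 of 8456 others, and the true ratio lay inside 96.2% of the intervals. For neutrophil-like cells (3555 genes) these were 197 of 200, 46 of 3355 and 96.0%. The simulated counts were drawn from the Poisson model that the intervals assume, with no spread between cells or sub-clusters. They thus check the calculation and not how far the intervals hold in these data. Positions are from GENCODE (GRCm38). The genes and lists were chosen with earlier results of these data known. Named were all 9 genes, the axis genes reaching 1 UMI per 10000 except a few that are not reported here, and the 3 genes most like each member, and axis genes below that level were named after their counts were seen. The naming rule for classes and the B-cell-like limit were set after the data were seen.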

Additional observations from a re-analysis of the deposited data

Results flagged for a closer look

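For 6 of the 9 genes the libraries differed in opposite directions in different classes, beyond counting error in each. The difference between the classes was not tested, since each class has 1 sample per condition.

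Csf1 in fibrosis was at 1.97 times normal in portal-vessel-endothelium-like cells and at 0.481 times in mesothelial-like cells. The portal class joined sub-clusters led by Nrg1 and by Ednrb, Adgrg6 and Mecom in normal but held only the Nrg1-led one in fibrosis, and in B-cell-like cells Csf1 was 0.117 in normal and 0.367 in fibrosis. Kitl was at 1.47 times (2.44 per cell) in cholangiocyte-like cells and at 0.302 times (0.434 per cell) in mesothelial-like cells, so both ligands were lower in the mesothelial-like cells of fibrosis than of normal. In fibrosis the mesothelial list of that class summed to 100.5 against 158 in normal and the Kupffer list to 13.2 against 1.51. In B-cell-like cells Kitl was 0.0798 in normal and 0.251 in fibrosis, and in cholangiocyte-like cells the endothelial list summed to 6.18 and 13.8. The part of these shifts in the cholangiocyte ratio was not tested. Flt3l was at 1.57 times in NK-cell-like cells and at 0.174 times (0.364 per cell) in portal-fibroblast-like cells, a class led by partly other genes in fibrosis than in normal. In B-cell-like cells the Flt3l ratio was 2.17 (1.38 to 3.43), an interval that holds the NK value. The NK list summed to 93.4 in normal and 47.7 in fibrosis NK-cell-like cells, where 66 of 162 cells were led within their lineage by cycling genes. The part of these shifts in the NK ratio was not tested.

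Among the receptors, Csf2rb was at 1.63 times normal (2.76 per cell) in Cx3cr1-led myeloid cells and at 0.396 times (0.280 per cell) in neutrophil-like cells. The Kupffer list in the Cx3cr1-led cells summed to 18.0 in normal and 47.3 in fibrosis. Csf3r was at 1.5 times in monocyte-like cells (1.04 per cell and 0.978 without a mitochondrial limit) and at 0.611 times in neutrophil-like cells. The monocyte-like cells were closest to the classical list in normal and the non-classical list in fibrosis, and their Kupffer list summed to 4.55 and 18.9. Both receptor genes were thus lower in the neutrophil-like cells of fibrosis than of normal. In those cells the endothelial list summed to 42.2 against 17.0 in normal and the neutrophil list to 321 against 570.4. Flt3 was at 2.90 times in pDC-like cells and at 0.470 times (0.795 per cell) in Cx3cr1-led cells, whose clusters had partly different leading genes in the libraries.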

How the results depend on the processing

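The alternatives were a mitochondrial limit of 5% (which kept 1853 and 1705 cells and 12 classes) or none, resolutions of 0.4 and 1.5, 30 principal components, the 39 genes allowed into clustering, the 5% of cells with the highest Scrublet scores removed, the 3 cells of each class richest in a gene removed, and UMIs per cell. Of the recomputed ratios 266 moved by less than their counting error, 78 moved further and 14 changed direction. Flt3 in pDC-like, Csf2rb in neutrophil-like and Csf1 in portal-vessel-endothelium-like cells stayed within it wherever they could be recomputed (Flt3 in pDC-like cells could not at 5%). Il34 in portal-fibroblast-like cells gave no ratio without its 3 richest cells, which left 0 UMIs in normal. The causes of the changes below were not tested. Only libraries and no replicates exist, so no replicate was left out. No paired analysis was possible because each condition is 1 mouse.

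Counted per cell, ratios were 1.97 for Csf1 and 2.42 for Kit in LSEC zone 1-like cells, 1.16 (reversed) for Il34 in HSC/MF-like cells, 0.364 for Flt3l in portal-fibroblast-like cells, 0.692 for Csf1 and 0.434 for Kitl in mesothelial-like cells, 2.22 for Csf1r in Kupffer-cell-like cells, 1.33 for Flt3 and 0.925 (reversed) for Csf2rb in cDC-like cells and 0.432 for Csf3r in neutrophil-like cells. At 5% they were 1.12 for Csf1 and 1.08 for Kit in zone 1, 0.878 for Csf1r in Kupffer-cell-like and 0.704 for Csf3r in neutrophil-like cells, with Kit turned to 0.691 in LSEC-like cells without a zone and 0.682 in central-vein-endothelium-like cells and Kitl to 0.875 in portal-vessel-endothelium-like cells, and 14 pairs were higher and 1 lower by the fold rule. Without a mitochondrial limit Kit was 1.11 in zone 1 and 0.976 without a zone, Flt3 2.13 and Csf2rb 0.849 in cDC-like cells, Csf3r 0.978 in monocyte-like cells and Kit in zone 3 over zone 1 7.92 in fibrosis.

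At resolution 0.4 Kit without a zone was 0.634, Csf2rb 0.817 and Flt3 2.17 in cDC-like cells, and in fibrosis Kit in zone 3 over zone 1 was 4.30 and Kitl in zone 1 over zone 3 1.65. At 1.5 Kit was 0.791 in zone 1 and 0.721 without a zone, Flt3 was 1.32 in cDC-like cells, Kit in zone 3 over zone 1 was 7.16 in normal and 9.67 in fibrosis, and Kitl in zone 1 over zone 3 1.80 and 3.79. At this setting the zone contrast of Kit was thus the larger in fibrosis, opposite to the order in the report. With 30 principal components Csf1 was 2.11 in zone 1, Kit 0.606 without a zone and Kitl in zone 1 over zone 3 2.14 in fibrosis. Without the highest Scrublet scores Csf1 was 1.67 in zone 1, Kit 0.729 without a zone, Kit in zone 3 over zone 1 15.9 in normal and 8.66 in fibrosis, Kitl in zone 1 over zone 3 2.36 in normal, and 3 pairs were lower by the fold rule. Across all of these Kit remained higher in zone 3 and Kitl in zone 1 wherever both zones were named. Kit in all LSEC-like cells pooled, added after seeing the data, stayed below normal in 8 of 8 settings, from 0.549 to 0.946.

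With at least 50 UMIs, 30 of 82 pairs of the 9 genes were past the fold rule, against 15.5% of all pairs. Thinning to 2000 UMIs or not at all moved 27 of 28 shares of cells. Values of Il34 (124 and 543 UMIs) and of the ligands Csf2, Csf3 and Il5 rest on few UMIs, and those of classes of 10 to 12 cells on few cells.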

Other observations

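Cells left out of the named classes held part of each gene. Mixed cells carried 14.5% of the Kit and 29.0% of the Il34 UMIs in normal, and 27.8% and 42.0% in fibrosis. In normal, a mixed myeloid sub-cluster of 24 cells led by Ngp and Ltf that also carried endothelial markers held Csf3r at 8.03, and in fibrosis a mixed mesenchymal sub-cluster of 65 cells led by Lrat and Colec11 that also carried Kupffer cell markers held Csf1r at 4.59 beside Csf1 at 1.30.

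Cycling cells were also bearers. In fibrosis a cycling myeloid sub-cluster of 91 cells held Csf1r at 6.92 and Flt3 at 1.13, a cycling endothelial sub-cluster of 84 cells held Kit at 2.93 and Kitl at 1.44, and cycling mesenchymal sub-clusters of 42 and 56 cells held Csf1 at 1.49 and 1.78. An unnamed mesenchymal sub-cluster of 29 cells led by Cxcl5, Fndc1 and Cyp1b1 held Csf1 at 1.97.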
